A study of Homo sapiens with 9 samples.

Results

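Spliceosomal small nuclear RNAs (snRNAs) are the short noncoding RNAs at the core of the machinery that removes introns. The major spliceosome uses the U1, U2, U4, U5 and U6 snRNAs. The minor spliceosome, which removes a small and distinct class of introns, uses U11, U12, U4atac and U6atac in their place and shares U5. Most snRNA genes are transcribed by RNA polymerase II from dedicated promoters, and the Integrator complex cuts the ends of their transcripts, while U6 and U6atac are made by RNA polymerase III. A list of 10 snRNA genes was taken: the 4 minor spliceosome genes RNU11, RNU12, RNU4ATAC and RNU6ATAC, and 6 genes of the major spliceosome, RNU4-1, RNU4-2, RNU5A-1, RNU5D-1, RNU5E-1 and RNU5F-1. A gene was used where a probe set carried its symbol and no other, and the brightest such probe set by its mean over all arrays was kept. This gave 7 of the 10 genes, among 22109 genes tested, and RNU4-1, RNU4-2 and RNU5D-1 were not analysed here.

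The cells were MDA-MB-231, an established human breast cancer line from a pleural effusion, exposed to YM-155 (sepantronium bromide), a small molecule developed against the survivin gene. Total RNA was hybridised to 9 Affymetrix whole-transcript arrays, 3 per group. Untreated cells were the controls, one treated group received 83 ng/ml in increments and was taken at 8 h, and the other received 14.6 ng/ml, its stated LC50, and was taken at 20 h. Dose and time differed together, no comparison isolates either, and a vehicle or time for the controls was not given in the sources used here. All levels below are RMA values on the log2 scale, so that a difference of 1 is a doubling in signal. Differences were tested with limma over all 22109 genes, and a gene was called where its p-value, adjusted by the Benjamini-Hochberg method, was under 0.05. Separate cultures for the replicates are not stated in the labels, so p-values here reflect only how far these arrays spread, and that spread may be technical.

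The median over all genes tested lay between 3.83 and 3.92 on every array, and precision is limited by having 3 arrays in a group. Control replicate 3 stood apart. Its differences from the other controls, over genes brighter than the median gene, had SDs of 0.312 and 0.313, against 0.187 between controls 1 and 2. Control replicate 3 was nearer to the 20 h arrays, with SDs of 0.633 to 0.652, against 0.708 to 0.750 for controls 1 and 2. To the 8 h arrays its SDs were 0.415 to 0.476, against 0.421 to 0.444 for controls 1 and 2. The arrays of 8 h replicates 1 and 2 were the closest pair, with an SD of 0.147. Of the mesenchymal markers of this line, 6 of 7 lay above the median level of all genes, among them VIM, AXL and MSN, while SPARC lay below it. SNAI2, a transcription factor of the mesenchymal state, rose by 1.62 at 8 h and 1.95 at 20 h, and CD44 and ZEB1 rose by 0.43 and 0.48 at 8 h, so that 3 of the 7 were called at 8 h and 1 at 20 h. Of the luminal epithelial markers, 1 of 10 was called at 8 h, CDH1, which rose by 0.45, and 0 at 20 h. Above the median level lay 6 of these 10, with the hormone receptor genes ESR1 and PGR, ERBB3 and FOXA1 below. Leukocyte markers were above it for 0 of 7 genes, with PTPRC at a mean of 1.75 in controls, 1.78 at 8 h and 1.79 at 20 h, and fibroblast and endothelial markers for 1 of 7. CD14 and CD3D rose at 20 h, by 0.77 and 0.51. The summary level of the leukocyte list, its median on each array, stayed between 2.56 and 2.89.

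Most of the measured snRNA genes rose after YM-155. At 8 h, 5 of the 7 were called higher and 0 lower, against 5.93% of all genes called higher and 6.28% lower, 12.2% in either direction. At 20 h, 6 of 7 were called higher and 0 lower, against 13.1% and 17.2% of all genes, 30.3% in either direction. All arrays of the treated group lay above all controls for 5 of the 7 genes at 8 h, against 12.9% of all genes, and for 6 at 20 h, against 19.2%. The count of 5 called at 8 h was 3 without control replicate 1, without control replicate 2 or without any 1 of the 8 h arrays, while the count at 20 h was 6 in each such fit. Both comparisons share the control arrays. The median log2 difference of the 7 was 0.69 at 8 h and 1.30 at 20 h, while that of all genes was 0.00 and 0.03. At least 2-fold rises were seen for 2 of the 7 at 8 h, RNU11 and RNU12, against 1.05% of all genes. This count was 1, RNU12, without control replicate 1 or 2 or without any 1 of the 8 h arrays. At 20 h they were seen for 4, RNU11, RNU12, RNU4ATAC and RNU6ATAC, against 2.65% of all genes. In bulk RNA, more RNA per cell and a change in which cells were present cannot be told apart, and the part of the marker shifts above in these rises was not tested.

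**Figure D1:**
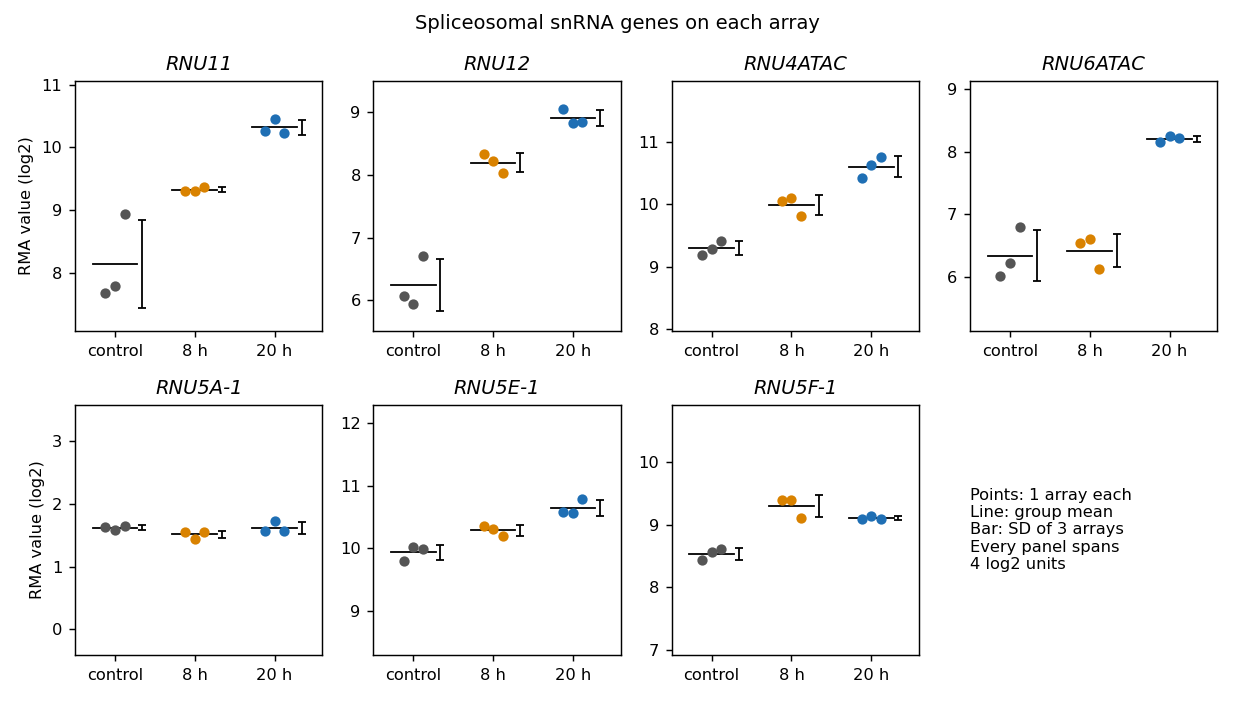
RMA values (log2, vertical axis) of the 7 snRNA genes in the control, 8 h and 20 h groups (horizontal axis). Each point is 1 array, lines are group means, bars are the SD of 3 arrays, and every panel spans 4 log2 units. RNU11, RNU12, RNU4ATAC and RNU5E-1 step upward from control to 8 h to 20 h, RNU6ATAC is high at 20 h only, RNU5F-1 is high at both times and RNU5A-1 stays near 1.6.

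RNU12 encodes the U12 snRNA, which pairs with the branch site of minor introns, and it had the largest differences of the 7 genes from control at both times. Its values were 6.07, 5.94 and 6.71 in the controls. At 8 h they were 8.33, 8.22 and 8.03. At 20 h they reached 9.06, 8.82 and 8.85. The 3 groups did not overlap, and control replicate 3 was the highest control. RNU12 rose by 1.95 at 8 h (SE 0.18, limma adjusted p = 0.000112), a 3.88-fold difference in signal, from 6.24 ± 0.41 to 8.20 ± 0.15 (SD, n = 3). It rose by 2.67 at 20 h (SE 0.18, limma adjusted p = 2.57e-06), a 6.37-fold difference. The difference of RNU12 exceeded that of 99.9% of genes at each time. Without control replicate 3 the differences were 2.19 and 2.91.

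RNU11 encodes the U11 snRNA, which recognises the splice site at the start of minor introns in a joint particle with U12. In the controls it measured 7.67, 7.79 and 8.94, so that the third control lay 1.21 above the mean of the other controls. The values at 8 h were 9.30, 9.30 and 9.36. Those at 20 h were 10.26, 10.46 and 10.24. All 8 h arrays lay above all controls, and all 20 h arrays above all 8 h arrays. RNU11 rose by 1.19 at 8 h (SE 0.27, limma adjusted p = 0.017) and by 2.19 at 20 h (SE 0.27, limma adjusted p = 0.000138). Without control replicate 3, the rise at 8 h was 1.60 (limma adjusted p = 2.37e-05). The call at 8 h ended in 7 of 19 alternatives, with adjusted p from 0.0523 to 0.0663. These were the fit to only the 2 groups compared, 8 h replicates 1 and 2 counted as 1 sample, and the fits without control replicate 1, without control replicate 2 or without any 1 of the 8 h arrays.

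RNU4ATAC encodes U4atac, the partner that holds U6atac inactive until the minor spliceosome is activated. Control values were 9.19, 9.29 and 9.42. The 8 h arrays gave 10.05, 10.10 and 9.81, and the 20 h arrays 10.42, 10.63 and 10.76. These groups again did not overlap, and the controls spread little, with an SD of 0.12. RNU4ATAC rose by 0.69 at 8 h (SE 0.12, limma adjusted p = 0.00385) and by 1.30 at 20 h (SE 0.12, limma adjusted p = 1.63e-05). Both calls held in all 19 alternatives.

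RNU6ATAC encodes U6atac, which forms part of the catalytic centre of the minor spliceosome and is, unlike the other members, a polymerase III transcript. Its values in controls were 6.01, 6.22 and 6.80. The 8 h values of 6.54, 6.60 and 6.12 lay inside that range. The 20 h values of 8.16, 8.26 and 8.22 lay above every other array. The difference was 0.08 at 8 h (95% interval -0.34 to 0.50, limma adjusted p = 0.863), which was not called, and RNU6ATAC rose by 1.87 at 20 h (SE 0.19, limma adjusted p = 3.83e-05), a 3.66-fold difference. A second RNU6ATAC probe set differed by 0.17 at 8 h and rose by 1.87 at 20 h. The separate probe sets may read the same transcript and are not independent measurements.

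The U5 snRNA sits at the centre of both spliceosomes and holds the exon ends, and RNU5E-1 and RNU5F-1 encode variant forms of it. RNU5E-1 measured 9.80, 10.03 and 9.99 in controls. It measured 10.36, 10.31 and 10.19 at 8 h and 10.59, 10.57 and 10.79 at 20 h. The groups stepped upward without overlap, but over a smaller span than the minor spliceosome genes. RNU5E-1 rose by 0.35 at 8 h (SE 0.10, limma adjusted p = 0.0428) and by 0.71 at 20 h (SE 0.10, limma adjusted p = 0.000281). The 8 h call ended in 11 of 19 alternatives, with adjusted p from 0.0549 to 0.143. Among these were the fits without any 1 of the control arrays, without any 1 of the 8 h arrays and without 20 h replicate 1 or 2.

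RNU5F-1 was 8.44, 8.56 and 8.62 in controls. It was 9.41, 9.39 and 9.11 at 8 h, and 9.09, 9.14 and 9.10 at 20 h. Both treated groups lay above the controls and overlapped each other. RNU5F-1 rose by 0.76 at 8 h (SE 0.10, limma adjusted p = 0.000837) and by 0.57 at 20 h (SE 0.10, limma adjusted p = 0.00125). The RNU5A-1 probe set was among the dimmest on the array, with 2.07% of genes dimmer. RNU5A-1 encodes a common form of U5, and its values lay between 1.44 and 1.73 on all 9 arrays. Its difference from control was -0.11 at 8 h (95% interval -0.28 to 0.07, limma adjusted p = 0.491) and 0.0012 at 20 h (95% interval -0.17 to 0.18, limma adjusted p = 0.994). A level this low bounds what could be seen.

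**Figure D2:**
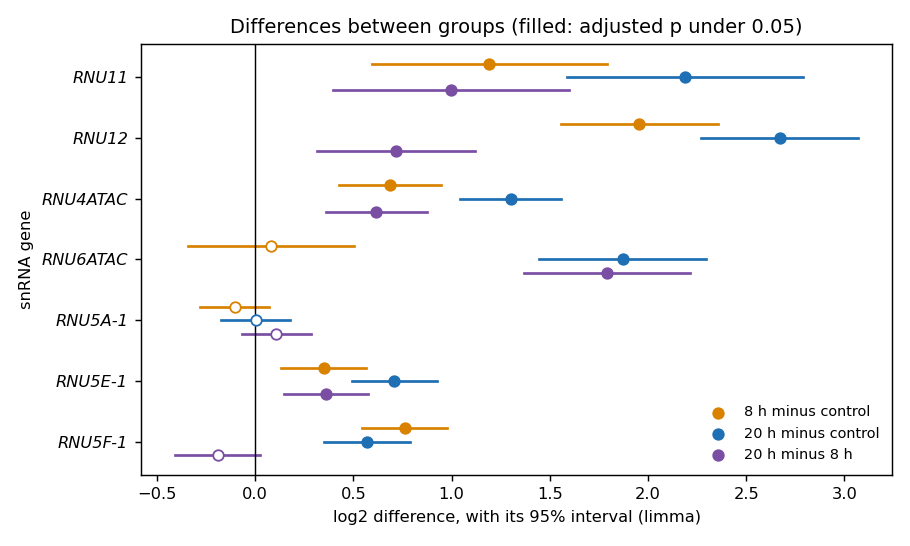
Log2 differences of the 7 snRNA genes (horizontal axis) for 8 h minus control, 20 h minus control and 20 h minus 8 h, with 95% intervals from limma. Filled points have an adjusted p under 0.05. RNU12 has the largest difference at 8 h (1.95) and at 20 h (2.67), and RNU6ATAC the largest between 20 h and 8 h (1.79).

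The treated groups were also compared with each other, which tests whether the differences at 20 h and 8 h were unequal. Of the 7 genes, 5 were called higher at 20 h than at 8 h and 0 lower, against 8.95% and 13.6% of all genes, 22.6% in either direction. All 20 h arrays lay above all 8 h arrays for 6 of the 7, against 17.8% of all genes. These 6 included the dim RNU5A-1, whose difference of 0.11 was not called (limma adjusted p = 0.391). The count of 5 was 2 without 8 h replicate 3, and 3 without 8 h replicate 2, 20 h replicate 1 or 20 h replicate 3. RNU6ATAC rose by 1.79 between the groups (SE 0.19, limma adjusted p = 0.000128), more than 99.85% of genes. RNU11 was higher by 1.00 (limma adjusted p = 0.0234), RNU12 by 0.72 (0.0165), RNU4ATAC by 0.62 (0.0037) and RNU5E-1 by 0.36 (0.0229). RNU5F-1 differed by -0.19 (95% interval -0.41 to 0.03, limma adjusted p = 0.201). RNU4ATAC and RNU6ATAC were called in all 19 alternatives. RNU11 lost its call in 7, without any 1 of the treated arrays and with 8 h replicates 1 and 2 counted as 1 (adjusted p 0.0565 to 0.0807). RNU12 lost it without 8 h replicate 3 (0.0707) or 20 h replicate 1 (0.0613). RNU5E-1 lost it without 8 h replicate 2 (0.0546), 8 h replicate 3 (0.0843) or 20 h replicate 3 (0.0791) and after quantile normalization was repeated, where its difference was 0.21 (0.162).

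A stepwise rise, with all controls below all 8 h arrays and these below all 20 h arrays, was shown by 4 of the 7 snRNA genes, RNU11, RNU12, RNU4ATAC and RNU5E-1, against 3.16% of all genes. The same 4 were called higher in all 3 comparisons, against 1.37% of all genes. That count was 1 without 8 h replicate 3 or 20 h replicate 1, 3 without control replicate 3, and 2 without any 1 of the other arrays. By class, 3 of the 4 minor spliceosome genes were called higher at 8 h and all 4 at 20 h, with log2 differences from 1.30 to 2.67. The 3 other measured genes, listed for the major spliceosome, were all U5 genes, and both spliceosomes share U5. Of these 3, 2 were called at each time, with differences at 20 h from 0.0012, for the dim RNU5A-1, to 0.71. At 8 h their count was 1, RNU5F-1, in every fit that left out a single array except that without 20 h replicate 3. At 20 h it was 2 in all of them. RNU5B-1, a U5 gene outside the list, rose by 2.46 at 20 h. No snRNA particular to the major spliceosome was measured among the members, so these counts do not compare the spliceosomes. The difference between the classes was not tested. Over the 9 arrays, the 6 pairs among the 4 stepwise genes had Pearson's r from 0.91 to 0.98, as a description of arrays that fall into 3 groups. High values follow from the choice of these 4, which were taken for a shared order on the same arrays. With these 4, RNU6ATAC had r from 0.74 to 0.86, RNU5F-1 from 0.70 to 0.85 and the dim RNU5A-1 from -0.15 to 0.07. RNU6ATAC and RNU5F-1 had an r of 0.35.

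Control replicate 3 was higher than the mean of the other controls for all 7 genes, by 1.21 for RNU11, 0.70 for RNU12, 0.69 for RNU6ATAC, 0.18 for RNU4ATAC, 0.12 for RNU5F-1, 0.08 for RNU5E-1 and 0.05 for RNU5A-1. Over all genes, the median of this difference was 0.01. Without control replicate 3, 4 of the 7 genes were called higher at 8 h and 6 at 20 h. The rise of RNU6ATAC at 20 h was then 2.10, that of RNU4ATAC 1.36, that of RNU5E-1 0.73 and that of RNU5F-1 0.61.

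Neighbouring genes were read for comparison, with neighbours taken from RefSeq annotation of GRCh38.p14. RNU4ATAC lies within CLASP1, which encodes a microtubule-binding protein. At 20 h, where RNU4ATAC rose, CLASP1 fell by 0.60 (SE 0.11, adjusted p = 0.00184 in limma), and its difference at 8 h was -0.23 (0.245). RNU12 lies between POLDIP3 and CYB5R3. POLDIP3, which encodes an RNA-binding protein, rose by 0.43 at 20 h (0.0131), a call that ended without control replicate 1 or without 20 h replicate 2 (highest adjusted p 0.0548), and differed by -0.03 at 8 h (0.923). CYB5R3, a cytochrome b5 reductase gene, differed by 0.18 and 0.28 (0.619 and 0.291). The differences of both neighbours were thus smaller than those of RNU12. The other side of RNU5A-1 holds RNU5B-1, a further U5 gene outside the list. RNU5B-1 rose by 1.41 at 8 h (limma adjusted p = 0.000359) and by 2.46 at 20 h (1.84e-06). PARP16, on the opposite side of RNU5A-1, differed by -0.34 and -0.31 and was not called. RNU5E-4P, a pseudogene next to RNU5E-1, rose at 8 h by 1.71 (0.00135) and differed by 0.47 at 20 h (0.182), and between the treated groups it fell by 1.24 (0.00423), where RNU5E-1 rose.

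snRNA genes have many near-identical copies, and the values of short probe sets can hold signal from them. All 3 measured U6atac pseudogenes were called higher at 20 h, by 0.84 to 0.99, and 0 of 3 at 8 h, with differences from -0.25 to 0.26. Of these 3, 1 lay above the median level of all genes. Of 2 U4atac copies and 1 U12 copy, 0 were called at either time. Since 0 of them lay above the median level, a change in them may have gone unseen. Copies of U11 measured were 0. Of 6 U4 copies 2 rose at each time, and of 24 U5 copies 1 rose at 8 h and 1 fell at 20 h, RNU5A-8P, by 0.63. All other symbols that begin with RNU and a digit, most of them pseudogenes, gave 12 of 136 higher and 0 lower at 8 h and 11 higher and 8 lower at 20 h, with 18 of the 136 above the median level of all genes. Shares of all genes called were 5.93% higher and 6.28% lower at 8 h, and 13.1% and 17.2% at 20 h. The part of such copies in the signal of the 7 genes was not tested.

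Other short nuclear RNAs were measured on the same arrays. Shares of all genes called were 5.93% higher and 6.28% lower at 8 h, and 13.1% and 17.2% at 20 h. Of the Cajal body RNAs, which guide modification of snRNAs, 4 of 20 rose and 2 fell at 8 h, and 16 rose and 0 fell at 20 h, with a median of 0.98. SCARNA4, one of them, rose by 1.71 at 8 h and by 1.13 at 20 h. Box H/ACA small nucleolar RNAs gave 20 of 61 higher and 1 lower at 8 h, and 43 higher and 0 lower at 20 h, with a median of 0.89. Box C/D small nucleolar RNAs gave 26 of 157 higher and 6 lower at 8 h, and 45 higher and 4 lower at 20 h. These lists differed in level, since 66 of the 157 box C/D and 51 of the 61 box H/ACA symbols lay above the median of all genes. Among the 66, 24 were higher and 5 lower at 8 h, and 41 higher and 3 lower at 20 h, with a median of 0.65 at 20 h. MicroRNA symbols gave 42 of 1043 higher and 41 lower at 8 h, and 70 and 75 at 20 h, with 231 of the 1043 above that level. Whether the share of short RNA in the samples moved with the groups was not tested.

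The mRNAs of the proteins that build and assist snRNPs, the particles formed by snRNAs and proteins, changed in both directions. Of 112 measured genes in 8 lists, 3 were called higher and 24 lower at 8 h, 2.68% and 21.4%, against 5.93% and 6.28% of all genes. At 20 h 13 were higher and 40 lower, 11.6% and 35.7%, against 13.1% and 17.2%. Most genes of these lists lay above the median level, where calls were more frequent. Of the 11054 genes above that level, 1179 were higher and 1241 lower at 8 h, and 2209 and 3436 at 20 h. The shares of all genes are thus lower than those among genes as bright as these, in both directions. They apply as well to the counts of each list below, and no list was tested as a set. Among the 112 genes, at least 2-fold changes at 20 h were 1 higher and 6 lower. The count higher at 8 h was 1 without 8 h replicate 3. The count lower at 8 h was 13 without control replicate 2, 14 without any 1 of the 8 h arrays and 15 with 8 h replicates 1 and 2 counted as 1.

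**Figure D3:**
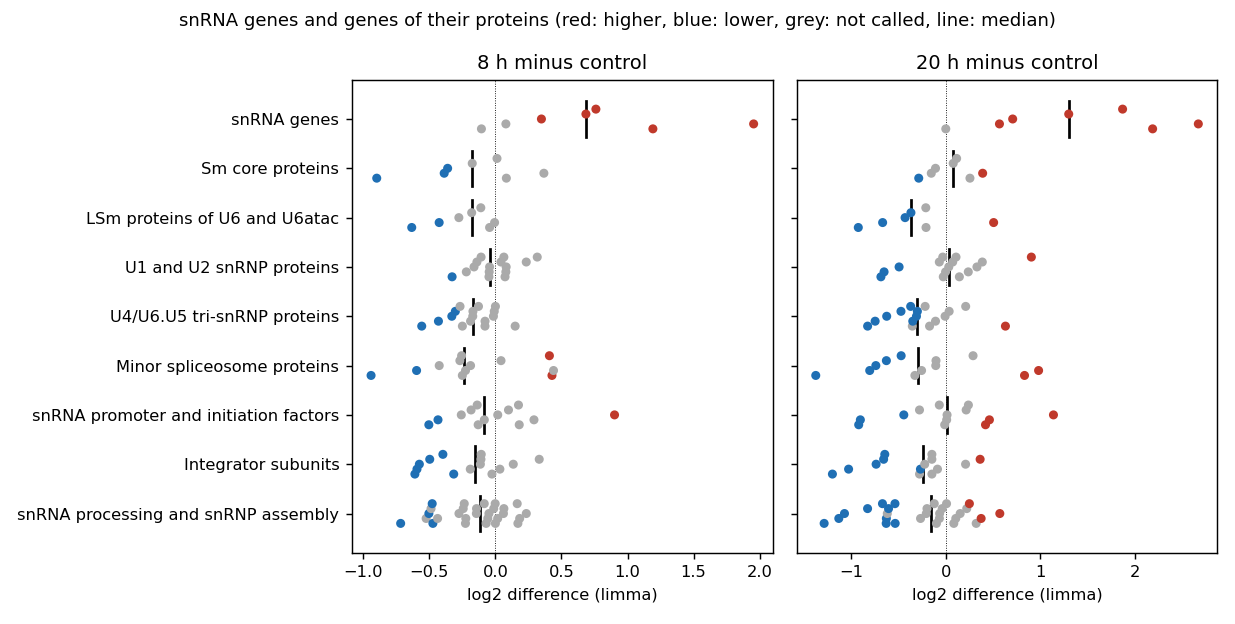
Log2 differences (horizontal axis) of the 7 snRNA genes and of the genes in 8 protein lists (rows), for 8 h minus control on the left and 20 h minus control on the right. Each point is 1 gene, red where called higher, blue where called lower and grey where not called, and black lines are medians. The snRNA median lies at 0.69 and 1.30. Every protein list median at 8 h lies below 0, as does that of all genes above the median level (-0.04). At 20 h the protein list medians lie on both sides of 0, from -0.37 to 0.08.

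The minor spliceosome's own proteins moved both ways. Of 12 measured, 2 rose and 2 fell at 8 h, and 2 rose and 5 fell at 20 h, with medians of -0.24 and -0.29. The 2 that rose at 8 h became 0 without 8 h replicate 3 and 1 without control replicate 1 or 2 or any 1 of the other treated arrays. CENATAC, a protein required for splicing of minor introns, fell by 0.94 at 8 h (limma adjusted p = 9.37e-05) and by 1.37 at 20 h (1.46e-06). RNPC3, a protein that binds the U11 and U12 particle together, fell by 0.80 at 20 h (0.000637). ZMAT5, another protein of that particle, rose by 0.83 (0.00489), and TXNL4B rose by 0.98 (0.000245). At 8 h these last 3 differed by -0.19, -0.42 and 0.44 and were not called.

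Among proteins that bind snRNAs directly, Sm proteins form a ring on all snRNAs of polymerase II. Of 7 measured, 0 rose and 3 fell at 8 h, and 1 rose and 1 fell at 20 h. The 3 that fell at 8 h became 1 without control replicate 1 or 2 or 8 h replicate 1, and 2 rose at 20 h without 20 h replicate 3. SNRPD1, of that ring, fell by 0.90 at 8 h (limma adjusted p = 0.00129), differed by -0.15 at 20 h (0.414), and was higher at 20 h than at 8 h by 0.75 (0.00191). SNRPB rose by 0.39 at 20 h (0.00773). SNRPD3 fell by 0.28 at 20 h (0.0376), a call that ended in 9 of 19 alternatives (highest adjusted p 0.128), among them without control replicate 1 or 2, 8 h replicate 1 or 2 and 20 h replicate 2 or 3. The LSm proteins, which form the ring on U6 and U6atac, gave 1 of 7 higher and 4 lower at 20 h, with a median of -0.37. LSM8, the subunit particular to the nuclear ring, fell by 0.92 (2.19e-05) and LSM4 by 0.67 (0.000417), while LSM7 rose by 0.51 (0.0163), a call that ended without control replicate 1 or 20 h replicate 2 (highest adjusted p 0.0669). The LSm count lower was 2 without control replicate 3 or 20 h replicate 3.

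Of the U1 and U2 particle proteins, 1 of 15 rose and 3 fell at 20 h. SF3B5, of the branch site complex, rose by 0.91 (limma adjusted p = 7.24e-05), while SF3B3 of the same complex fell by 0.68 (3.72e-05). SNRPA, which binds U1, fell by 0.65 (0.00137) and SF3A3 fell by 0.49 (0.00154). Without control replicate 3, 4 of this list rose. Of the proteins of the U4/U6.U5 tri-snRNP, 1 of 16 rose and 8 fell at 20 h, with a median of -0.30. The count higher was 2 without 20 h replicate 2. SNRNP40, a U5 protein, fell by 0.82 (0.000135), TXNL4A, another, by 0.75 (8.17e-05) and the helicase DDX23 by 0.62 (0.00361). SNU13, which binds U4 and box C/D RNAs, rose by 0.63 (0.000128).

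The factors that make snRNAs were read last. Of the promoter and initiation factors, 3 of 13 rose and 3 fell at 20 h, with a median of 0.01. ELL, an elongation factor of the complex that acts at snRNA genes, rose by 0.90 at 8 h (limma adjusted p = 0.0087) and by 1.14 at 20 h (0.000683), while its partners ICE2 and ZC3H8 fell by 0.92 (0.00204) and 0.44 (0.00699) at 20 h. SNAPC3, a subunit of the complex that binds the snRNA promoter element, fell by 0.90 at 20 h (4.79e-05). Of the Integrator subunits, 0 of 14 rose and 6 fell at 8 h, and 1 rose and 6 fell at 20 h, with a median of -0.24 at 20 h. Shares of all genes called were 5.93% higher and 6.28% lower at 8 h, and 13.1% and 17.2% at 20 h. INTS2 fell by 1.20 (0.000271), INTS8 by 1.03 (0.000516), INTS10 by 0.74 (0.000372) and INTS9 by 0.66 (0.000221) at 20 h. The 8 h count was 3 without control replicate 1 or 2 or without 8 h replicate 1 or 3, and 1 without 8 h replicate 2.

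Of the genes for snRNA processing, transport and snRNP assembly, 0 of 28 rose and 4 fell at 8 h, and 3 rose and 10 fell at 20 h. XPO1, the export receptor that carries new snRNAs to the cytoplasm, fell by 1.28 at 20 h (limma adjusted p = 1.31e-05). NCBP1, the large cap-binding subunit, fell by 0.47 at 8 h (0.0112) and by 1.13 at 20 h (1.4e-05). GEMIN2, of the SMN complex that loads Sm rings, fell by 1.07 at 20 h (0.000394), and CLNS1A, which delivers Sm proteins to it, by 0.83 (4.3e-05). Its 3 higher genes at 20 h became 1 when control replicate 1, control replicate 2 or 20 h replicate 2 was left out.

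For each of the 6 called snRNA genes, the 3 genes most like it were taken by Pearson's r over the 9 arrays, among the 11053 other genes above the median level. The values of r lay between 0.98 and 0.997, and since the arrays form 3 groups they describe likeness only. RNU12 was most like CXCL8, a chemokine gene, with SPTY2D1 and SEC24A. CXCL8 rose by 2.05 at 8 h and 2.82 at 20 h. RNU11 was most like USP36, ICAM1 and SPRY4, RNU4ATAC most like CDKN1A, AOC2 and RNU1-14P, and RNU5E-1 most like SNORD32B, RNU4ATAC and AOC2. RNU6ATAC was most like CST3, SEZ6L2 and NOB1, which differed by 0.05, 0.11 and -0.03 at 8 h and rose by 0.81, 1.01 and 0.98 at 20 h. RNU5F-1 was most like SCARNA4, PPP1R3B and FOSL2.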

How the data were processed

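RNA from 9 arrays was analysed, 3 per group. The deposited log2 values came from RMA in Affymetrix Expression Console, per the submitters' processing notes, and cover 53617 probe sets per array. RMA corrects background, equalises the distribution of values between arrays and summarises the probes of a set, so that every level is relative to the rest of the array. The version and genome build were not given in the sources used here, so no positions are printed.

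Of 25713 probe sets in the gene table, 23558 had 1 symbol. The brightest probe set of each symbol was kept, which left 22109 genes, with no filter on low values. Symbols were updated through gene identifiers, which changed 3. Means of the 3 groups were fitted over all 9 arrays by lmFit and eBayes of limma 3.58.1 under R 4.3.3 (6 residual and 4.01 prior degrees of freedom), two-sided, with p-values adjusted over all genes. The script was tested on simulated data. With 3 arrays a group, the smallest p an exact permutation test allows is 0.1, so none was used.

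The members and lists were chosen with earlier results of these data known. Named genes were the members, their neighbours, up to 4 called genes per list with the largest change against control, the 3 most similar genes per called member, and cell markers. Copies of the members were added after their values were seen. There were 19 alternatives: a filter at the median level, other uses of probe sets, repeated quantile normalization, median centring, array weights, a fit to just the 2 groups compared, a variance that is trended and robust, the replicate number as a block, 8 h replicates 1 and 2 averaged, and leaving out each array.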

Additional observations from a re-analysis of the deposited data

Results flagged for a closer look

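For 5 snRNA genes the 20 h and 8 h groups differed by the test of that difference, with dose and time changing together. The log2 difference, 20 h minus 8 h, was 1.79 for RNU6ATAC, 1.00 for RNU11, 0.72 for RNU12, 0.62 for RNU4ATAC and 0.36 for RNU5E-1 (limma adjusted p from 0.000128 to 0.0234). RNU6ATAC stood out among them in that its 8 h arrays lay within the range of the controls.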

How the results depend on the processing

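The count of snRNA genes called at 20 h against control was 6 in all 19 alternatives. At 8 h the count of 5 became 3 with only the 2 groups compared and 3 with 8 h replicates 1 and 2 averaged, and ranged from 3 to 5 when single arrays were left out. Between 20 h and 8 h it ranged from 2 to 5 when single arrays were left out. No called snRNA gene changed direction. RNU6ATAC at 8 h, not called, ranged from -0.087 to 0.31 without single arrays. RNU5A-1 at 20 h, not called, was -0.041 after repeated quantile normalization and -0.027 with centred arrays, and ranged from -0.054 to 0.029 without single arrays. For the 8 protein lists together, the 3 genes higher at 8 h became 5 among genes above the median level and ranged from 1 to 3 without single arrays. The 24 lower at 8 h became 15 with 8 h replicates 1 and 2 averaged and ranged from 13 to 23. The 13 higher at 20 h became 21 after repeated quantile normalization and ranged from 9 to 18. Between 20 h and 8 h, the 18 higher ranged from 10 to 20. The cause was not tested. With the replicate number as a block, 4 snRNA genes were called at 8 h, 6 at 20 h and 5 between 20 h and 8 h, and RNU5E-1 lost its 8 h call (adjusted p = 0.0829). Whether the numbers pair the samples is not stated in the labels. The correlation of same-numbered arrays, taken as deviations from group means, lay between -0.32 and 0.11. This cannot settle it, since differently numbered arrays were not compared.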

Other observations

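RNU6ATAC was the only polymerase III transcript among the members, and lists of other RNAs that this polymerase makes, with their pseudogenes, were read after their values were seen. Over all symbols they moved in both directions. Shares of all genes called were 5.93% higher and 6.28% lower at 8 h, and 13.1% and 17.2% at 20 h. Only 2 of 35 Y RNA symbols and 1 of 10 7SL and 7SK symbols lay above the median level of all genes. Above it, the Y RNA, 7SL and 7SK, vault RNA, and RNase P and MRP lists each had 1 higher and 0 lower at 20 h. At 8 h, above that level, 1 vault RNA fell and 0 symbols of these lists rose. Of 35 Y RNA symbols, all pseudogenes, 1 rose and 1 fell at 8 h, and 3 rose and 3 fell at 20 h, from RNY4P23, which fell by 2.79, to RNY4P18, which rose by 1.34. Of 10 7SL and 7SK symbols, 0 rose and 1 fell at 8 h, and 1 rose and 1 fell at 20 h. The one that fell was the pseudogene RN7SKP9, by 0.64 at 8 h and by 1.20 at 20 h. RN7SK, the 7SK RNA that holds back an elongation factor, differed by -0.41 at 8 h (limma adjusted p = 0.0665) and rose by 2.15 at 20 h (1.21e-06). RPPH1, the RNA of RNase P, differed by -0.08 at 8 h and rose by 0.73 at 20 h (0.00771). RMRP, the RNA of RNase MRP, differed by -0.08 at 8 h and rose by 0.28 at 20 h (0.0281). The vault RNA genes VTRNA1-1 and VTRNA1-2 differed by -0.03 and -0.18 at 8 h and rose by 0.94 and 1.26 at 20 h. VTRNA1-3 and VTRNA2-1 fell by 1.25 and 1.57 at 8 h, and at 20 h they differed by -0.41 and -0.43 and were not called. The fifth vault symbol, VTRNA3-1P, differed by 0.06 and 0.02.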
